A study of Mus musculus with 6 samples.

Results

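The antioxidant and glutathione defense genes are 41 genes that encode the enzymes, small thiol proteins, metal-binding proteins and regulators with which a cell removes superoxide, peroxides and reactive electrophiles. They were picked by gene symbol: every probe set of the array whose symbol entry names 1 of them was taken, and the brightest probe set of a gene was its main value. All 41 were found, on 85 of the 45077 probe sets, among 22527 gene symbols in all. The level of each probe set is an RMA signal on the log2 scale, on which a difference of 1 is a doubling.

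Cortical RNA of 6 male mice, was measured on Affymetrix mouse expression arrays. The labels give an age of 16 weeks, which in the methods comes before acclimatization and dosing, so the mice were older when the cortex was taken. There were 3 groups of 2 mice. SAMR1 + Water and SAMP8 + Water received water by mouth, and SAMP8 + STEE received sugarcane top ethanolic extract (STEE) at 20 mg/kg, for 30 days and then through 8 days of water maze tests. SAMP8, senescence-accelerated mouse prone, is an inbred strain with early memory loss, and SAMR1 is its senescence-resistant relative, so the strains differ at many loci and SAMR1 is no single-gene control. The methods state that the animals of the study also drank BrdU, a thymidine analogue that labels dividing cells, so that all groups shared this agent. SAMP8 + Water mice are called SAMP8 controls and SAMP8 + STEE mice STEE-fed mice. The values used are the authors' averages of the 2 mice of a group, so no spread between mice stands behind any difference here, no p-value can be given, and precision is limited by the number of arrays.

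Superoxide dismutases turn superoxide into hydrogen peroxide, which catalase, the glutathione peroxidases and the peroxiredoxins then reduce. The peroxidases draw their electrons from glutathione and thioredoxin, glutathione transferases couple glutathione to electrophiles, and metallothioneins bind zinc and copper and quench radicals. Many of these genes answer to the transcription factor Nrf2 (Nfe2l2), which Keap1 holds in check and which binds the antioxidant response element, whereas metallothionein genes answer to Mtf1 through metal response elements. In the brain, astrocytes carry much of the glutathione system and supply neurons with its precursors.

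The 3 comparisons were SAMP8 controls minus SAMR1 (the strain difference), STEE-fed mice minus SAMP8 controls (the STEE difference), and STEE-fed mice minus SAMR1. The SAMP8 control mean enters the strain and STEE differences with opposite sign, so a chance low value in those 2 mice would lower the first and raise the second, and the comparison of STEE-fed mice with SAMR1 is the sum of both. A gene was counted as past the threshold when its difference was at least 0.25 on the log2 scale, about 1.19-fold. Among genes with several probe sets, the differences of the probe sets of 1 gene had a pooled SD of 0.145 for strain, 0.093 for STEE and 0.15 for STEE-fed mice minus SAMR1 (9633 genes), which is a spread between probes and not between mice.

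The dissected tissue differed between the strains in its marker genes. All 9 striatal markers were higher in SAMP8 controls than in SAMR1 (median log2 difference 0.61), and all 10 myelin markers were lower (median -0.295). Of all 22527 genes, 10613 were higher and 11057 lower in that comparison. Of 9 choroid plexus markers 8 were lower, 3 of them past the threshold. Ttr, the thyroid hormone carrier made there, was at 10.20 in SAMR1, 8.24 in SAMP8 controls and 9.33 in STEE-fed mice. Of these 3, Kcnj13 and Otx2 had levels under the median signal of all probe sets, 4.15. Of 10 astrocyte markers, 8 were lower in SAMP8 controls, none of them past the threshold (median -0.10), and of 8 meningeal markers 6 were lower (median -0.13). Between STEE-fed mice and SAMP8 controls the medians of these lists lay between -0.025 and 0.07. Past the threshold, Ttr was higher by 1.09 and the astrocyte gap junction gene Gjb6 by 0.35. The 10 astrocyte markers went both ways with STEE, 6 higher and 4 lower, from -0.22 to 0.35. For strain, microglial markers had a median of 0.03, endothelial and pericyte markers -0.01 and blood markers -0.07. The endothelial and pericyte markers went both ways, with Abcb1a, a drug efflux pump of the blood-brain barrier, higher by 0.91 and Ly6c1 by 0.28, and Cldn5 at -0.28 and Pdgfrb at -0.32. The 10 neuronal markers had a median of 0.05 for strain, and the mean log2 level of these genes was 9.91, 9.97 and 9.98 in SAMR1, SAMP8 controls and STEE-fed mice, bright in each group. The part of these markers in the differences below was not tested, and in bulk tissue fewer cells of a type and less RNA per cell cannot be told apart.

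**Figure D1:**
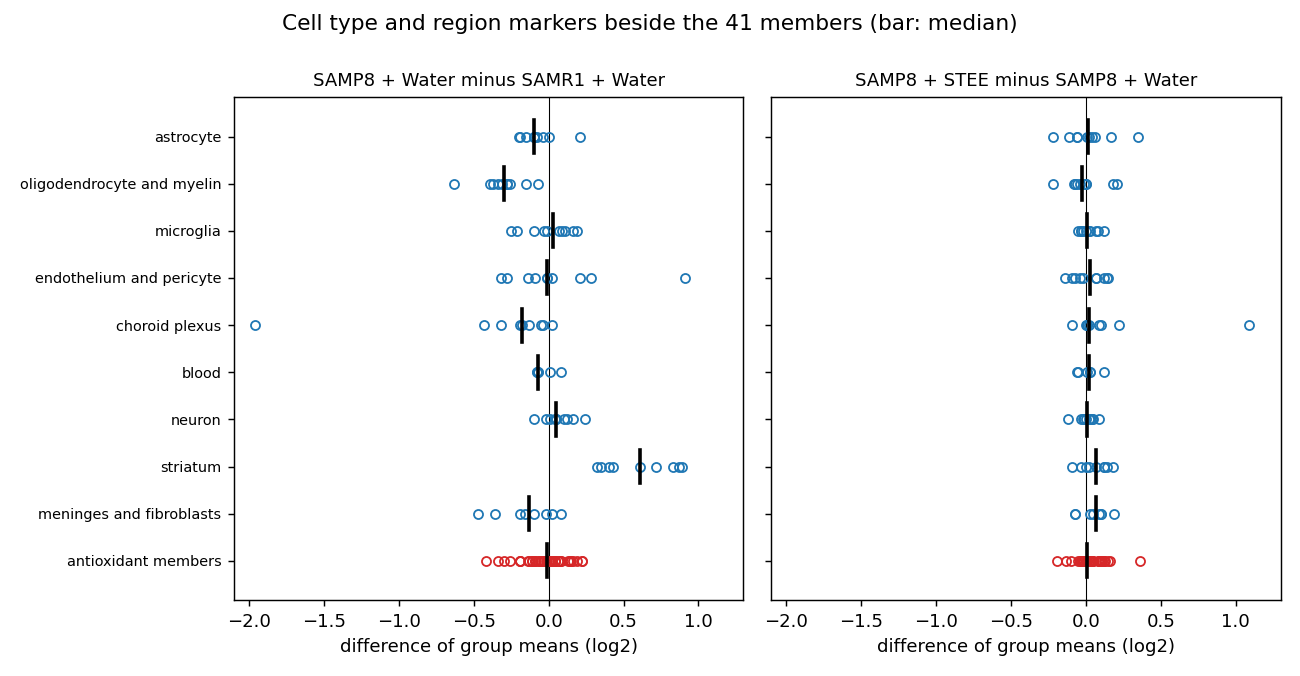
Log2 differences of each cell type and region marker, by list, for SAMP8 controls minus SAMR1 and STEE-fed mice minus SAMP8 controls, with 1 point per gene, a bar at the list's median and the 41 antioxidant genes in red at the foot. The 9 striatal markers all lie above 0 and the 10 myelin markers all lie below 0 in the strain comparison, and the medians lie near 0 in the STEE comparison.

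Taken as 1 group, the 41 genes were not shifted to one side by strain. In SAMP8 controls 19 were higher than in SAMR1, 21 were lower and 1 was equal, with a median log2 difference of -0.01 against 0.00 over all genes. Past the threshold, 0 of the 41 were higher, against 4.25% of all genes, and 4 were lower, which is 9.76% of the 41 against 3.84% of all genes. The 4 were Gstm1, Gstt1, Gpx3 and Cat. As 36 of the 41 had a signal at or above the median of all probe sets (4.15), the genes of that signal range are the closer background: 5.48% of those 13001 genes were lower past the threshold and 6.51% were higher. The median size of the strain difference was 0.09 for the 41 and 0.09 for the genes of that range.

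With STEE the differences of the group were smaller. Relative to SAMP8 controls, 24 of the 41 were higher, 14 lower and 3 equal, with a median of 0.01 and a median size of 0.03 against 0.06 over all genes. The metallothionein gene Mt2 was the single one past the threshold on the higher side, where 1.4% of all genes lay, and 0 were past it on the lower side, where 1.22% of all genes lay. Among the 13001 genes at or above the median signal, 7081 were higher with STEE. Of these 13001 genes, 1.96% were past the threshold on the higher side and 1.48% on the lower side. A count of 1 in 41 is a share of 2.44% and lies near that background. Between STEE-fed mice and SAMR1, 2 of the 41 were higher past the threshold (Gclm and Srxn1) against 5.35% of all genes, and 3 were lower (Gpx3, Gstm1 and Mgst1) against 3.53% of all genes. Among the genes at or above the median signal, 8.37% were higher and 4.95% lower past the threshold. Without probe sets of the types that may bind several transcripts, Gstm1 was at -0.23 in that comparison, under the threshold. The shares of the 41, 4.88% and 7.32%, are counts of a few genes with no test, and neither is read as particular to the group.

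**Figure D2:**
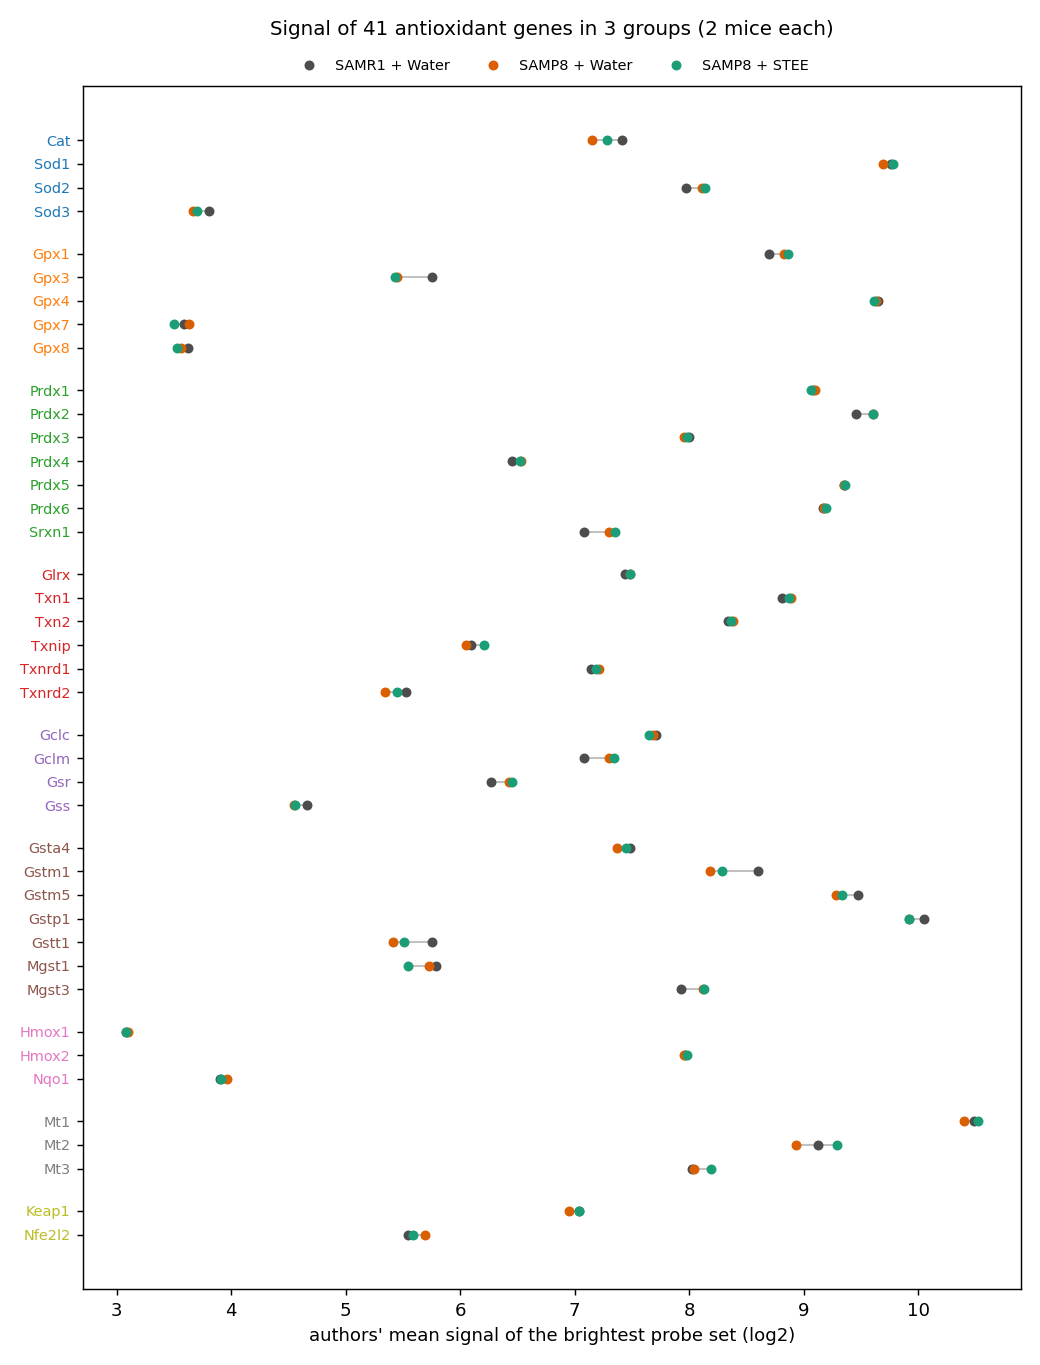
Authors' mean log2 signal of the brightest probe set of each of the 41 genes, ordered by role, with 1 point for SAMR1, 1 for SAMP8 controls and 1 for STEE-fed mice, each over 2 mice. For most genes the 3 points nearly coincide, while Gstm1, Gstt1 and Gpx3 show SAMR1 to the right of both SAMP8 groups and Mt2 shows STEE-fed mice to the right of both others.

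Superoxide dismutases and catalase differed little apart from catalase in the strain comparison. Cat, the peroxisomal enzyme that splits hydrogen peroxide, had a mean log2 level of 7.41 in SAMR1, 7.15 in SAMP8 controls and 7.28 in STEE-fed mice. Its strain difference was -0.26, a level 1.20-fold lower, and 3.44% of all genes were at least as low. The dimmer second probe set of Cat gave -0.13, so both were lower in SAMP8 controls but only the brighter was past the threshold. With STEE the probe sets of Cat gave 0.13 and 0.17, below the threshold.

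Sod1, the cytosolic copper-zinc enzyme, was at 9.76, 9.69 and 9.78 in SAMR1, SAMP8 controls and STEE-fed mice. Its 5 probe sets spanned -0.16 to 0.08 for strain, on both sides of 0. Sod2, the mitochondrial manganese enzyme, was at 7.97, 8.11 and 8.14, and all 4 of its probe sets were higher in SAMP8 controls, by 0.14 at the brightest. Sod3, the extracellular enzyme, was at 3.81, 3.67 and 3.70, under the median signal of all probe sets. At the brightest probe sets, all 4 genes of this group were higher in STEE-fed mice than in SAMP8 controls, by 0.03 to 0.13. None was past the threshold, and 10903 of all 22527 genes were higher. With STEE the probe sets of Sod1 ran from -0.06 to 0.09 and those of Sod2 from -0.07 to 0.09, on both sides of 0.

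Among the glutathione peroxidases, a family named for reducing peroxides with glutathione, Gpx3 differed by strain. Gpx3, the secreted form, was at 5.75 in SAMR1, 5.45 in SAMP8 controls and 5.43 in STEE-fed mice. It was 1.23-fold lower in SAMP8 controls (log2 difference -0.30), where 2.3% of all genes and 5.31% of genes within 0.5 of its signal were at least as low. With STEE it differed by -0.02, so both SAMP8 groups had nearly the same level and both lay below SAMR1. It has 1 probe set, so no second probe bears on it. Gpx1, the main cytosolic form, was at 8.70, 8.83 and 8.86, a strain difference of 0.13. Gpx4, which reduces lipid peroxides in membranes, was at 9.65, 9.63 and 9.61, within 0.04 across the groups. Gpx7 and Gpx8, forms of the endoplasmic reticulum, had levels from 3.50 to 3.63, and the STEE difference of Gpx7 was -0.13.

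The peroxiredoxins, abundant thiol peroxidases, were nearly level across the groups. At the brightest probe sets, the strain differences of Prdx1 to Prdx6 lay between -0.05 and 0.14. For Prdx1 that value was 0.02, while its other 4 probe sets gave -0.17 to -0.07, so its direction differs between probes. The highest was that of Prdx2, a cytosolic form, at 9.46 in SAMR1 and 9.60 in both SAMP8 groups. The lowest strain difference was that of Prdx3, -0.05, at 8.00, 7.95 and 7.98. For STEE the lowest at the brightest probe sets was that of Prdx1, -0.04. Prdx5 was at 9.35, 9.35 and 9.36. The brightest probe sets of Prdx1 and Prdx6 also list a near-identical gene (Gm21399 and LOC677654), so their signal may be shared. Between STEE-fed mice and SAMR1 the brightest probe set of Prdx6 gave 0.02 and its other one -0.26, which differ by more than the threshold within 1 gene.

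Srxn1 encodes sulfiredoxin, which repairs overoxidised peroxiredoxins and is a known target of Nrf2. Its mean log2 level was 7.08 in SAMR1, 7.30 in SAMP8 controls and 7.35 in STEE-fed mice, so SAMR1 was the lowest group. The strain difference was 0.22, under the threshold, and 5.43% of all genes, or 9.59% of genes of like signal, were at least as high. Its 4 probe sets were all higher in SAMP8 controls, by 0.01 to 0.29. Between STEE-fed mice and SAMR1 the difference of 0.27 was past the threshold, and all 4 probe sets were higher, by 0.06 to 0.36.

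In the thioredoxin and glutaredoxin system, which keeps protein thiols reduced, no brightest probe set was past the threshold in any of the 3 comparisons. Txn1, the cytosolic thioredoxin, differed by 0.08 for strain and -0.02 for STEE, and Txn2, its mitochondrial counterpart, by 0.04 and -0.02. Txnrd1, the cytosolic thioredoxin reductase, differed by 0.07 for strain. Txnrd2, the mitochondrial reductase, was at 5.53, 5.34 and 5.45, and its 4 probe sets ran from -0.19 to 0.28 for strain, so its direction depends on the probe. Txnip, which binds and restrains thioredoxin and follows glucose supply, was at 6.09, 6.05 and 6.21, a STEE difference of 0.16. Glrx, glutaredoxin, was level at its brightest probe set (7.44, 7.48 and 7.48), while its dimmer one stood at 5.52, 5.80 and 5.89 and gave a strain difference of 0.28.

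The enzymes that make and recycle glutathione did not share a direction. Gclc, the catalytic subunit of glutamate-cysteine ligase, differed by -0.03 for strain and for STEE. Gclm, the modifier subunit of that rate-limiting ligase, was at 7.08 in SAMR1, 7.30 in SAMP8 controls and 7.34 in STEE-fed mice. That makes 0.22 for strain and 0.26 for STEE-fed mice minus SAMR1, but the second probe set of Gclm gave -0.14 and 0.01, so the higher level rests on 1 of its 2 probe sets. Gsr, glutathione reductase, was at 6.27, 6.43 and 6.45 (strain difference 0.16), and Gss, glutathione synthetase, at 4.66, 4.55 and 4.56 (strain difference -0.11).

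The glutathione transferases held the largest strain differences of the 41 genes, with 6 of 7 lower in SAMP8 controls and a median of -0.13. Of all 22527 genes, 11057 were lower in that comparison. Gstm1, a cytosolic mu-class transferase prominent in astrocytes, was at 8.60 in SAMR1, 8.18 in SAMP8 controls and 8.29 in STEE-fed mice. SAMR1 was thus the highest group and SAMP8 controls the lowest. The strain difference of -0.42 is a level 1.34-fold lower, and 0.914% of all genes, or 0.87% of the 1609 genes of like signal, were at least as low. All 4 of its probe sets were lower in SAMP8 controls, by -0.18 to -0.42, and all 4 were higher in STEE-fed mice than in SAMP8 controls, by 0.08 to 0.11. The brightest is of a type that may also bind related sequences, and mu-class genes are much alike, and of the probe sets without that mark, the one at 7.26, 6.92 and 7.03 gave -0.34 and the one at 4.11, 3.93 and 4.01 gave -0.18, under the threshold.

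Gstt1, a theta-class transferase, was at 5.75, 5.41 and 5.51 in SAMR1, SAMP8 controls and STEE-fed mice. It was 1.27-fold lower in SAMP8 controls (log2 difference -0.34), with 1.68% of all genes and 3.93% of those of like signal at least as low. Gstt1 has 1 probe set, so this value rests on that probe set alone. Its STEE difference was 0.10, under the threshold. Gstm5, a further mu-class gene, was at 9.47, 9.28 and 9.33, a strain difference of -0.19. Gstp1, the pi-class enzyme, was at 10.05, 9.92 and 9.92, and Gsta4, which conjugates the lipid peroxidation product hydroxynonenal, differed by -0.11 for strain. Beside these values, the astrocyte markers had a median of -0.10 in the same comparison and the myelin markers -0.295.

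The membrane-bound microsomal transferases did not share that pattern. Mgst3 was at 7.93, 8.12 and 8.13, higher by 0.19 in SAMP8 controls and the single transferase on that side at the brightest probe set, while its other probe set gave -0.02. Mgst1 was at 5.79, 5.73 and 5.54, so STEE-fed mice were the lowest group. Its STEE difference of -0.19 was the lowest of the 41, with 3.13% of all genes and 4.53% of those of like signal at least as low. The -0.25 between STEE-fed mice and SAMR1 lay at the threshold itself. The other probe set of Mgst1, with levels from 2.98 to 3.07, gave 0.03 with STEE and 0.09 between STEE-fed mice and SAMR1, so the direction differs between its probes.

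Heme oxygenase and quinone reductase genes, classical stress-induced genes of the Nrf2 pathway, were level. Hmox1, the inducible heme oxygenase, was at 3.08, 3.10 and 3.08 and Nqo1, a quinone reductase, at 3.90, 3.96 and 3.91, both under the median signal of all probe sets. Hmox2, the constitutive heme oxygenase of neurons, was at 7.96, 7.95 and 7.98. The regulators themselves stood under the threshold throughout. Nfe2l2 was at 5.54, 5.69 and 5.59 in SAMR1, SAMP8 controls and STEE-fed mice, and Keap1 was at 7.04, 6.95 and 7.04, so SAMP8 controls had the highest mean of Nfe2l2 and the lowest of Keap1.

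**Figure D3:**
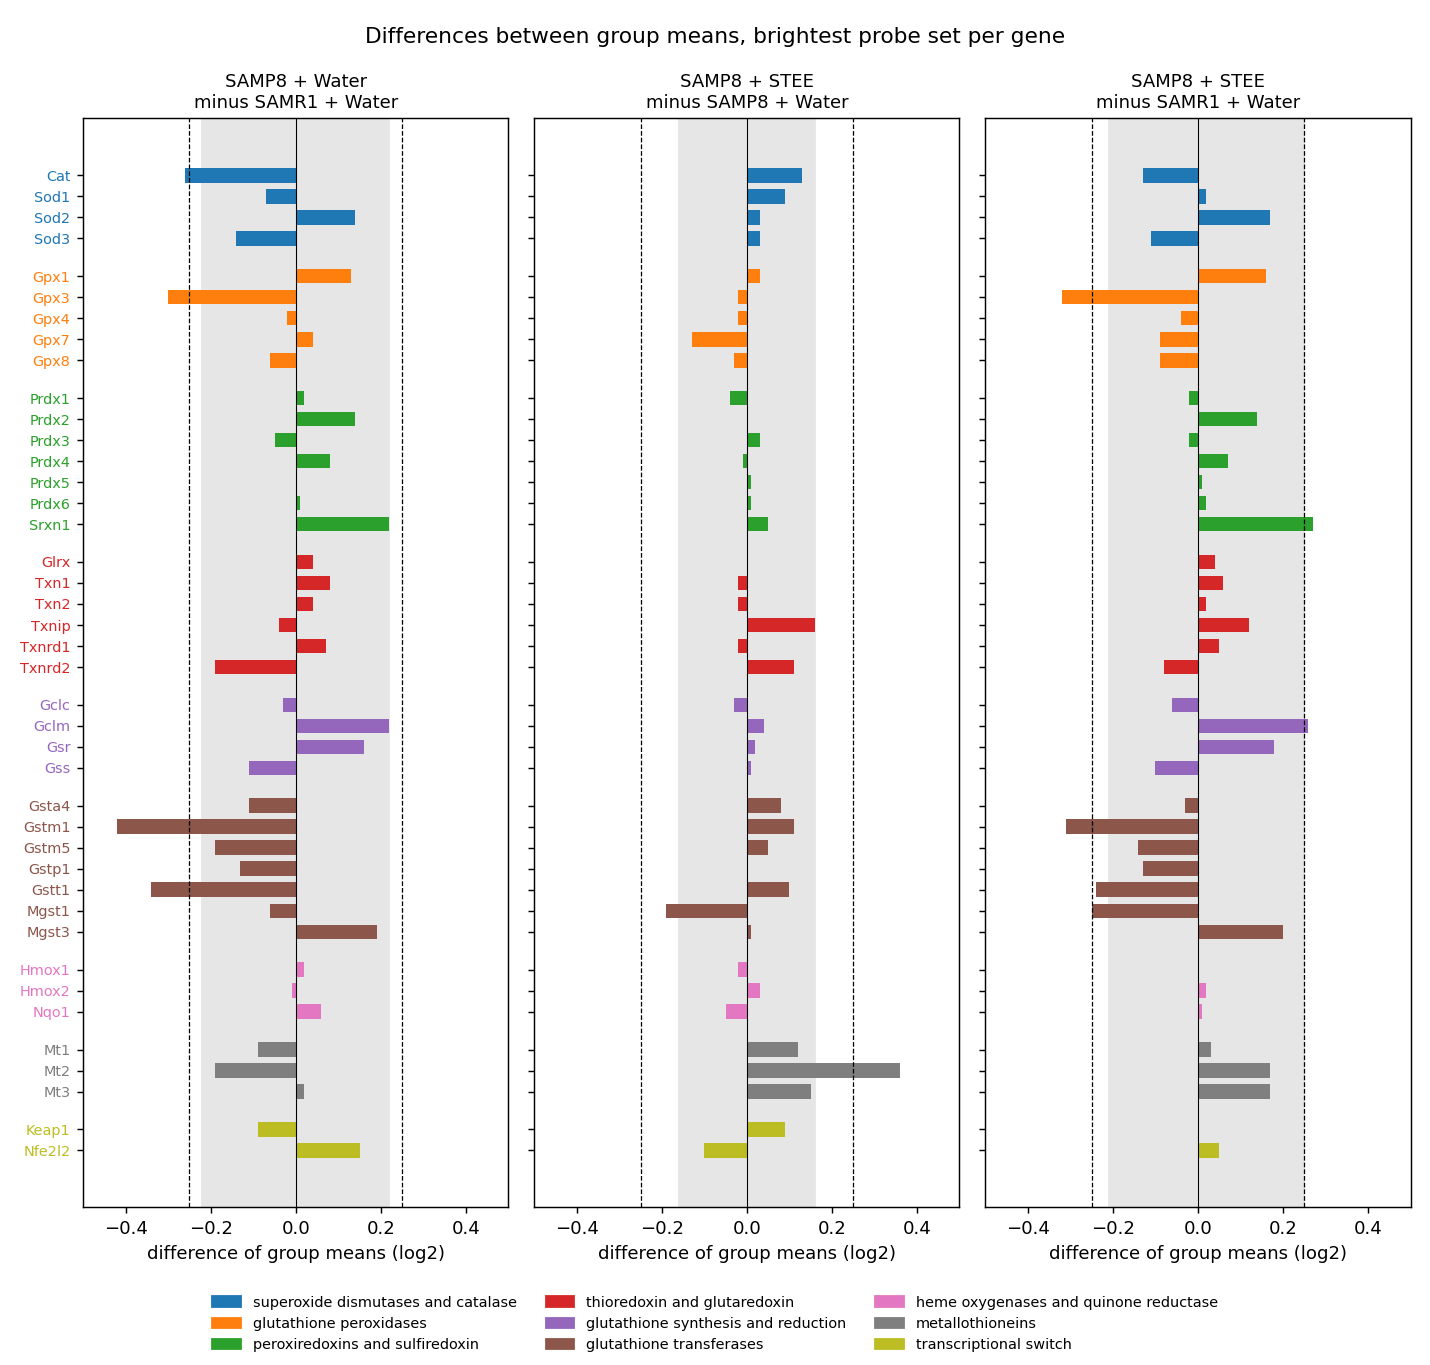
Log2 differences of the 41 genes at their brightest probe set, ordered by role, in the 3 comparisons, with dashed lines at the threshold of 0.25 on both sides and a grey band from the 5th to the 95th percentile of all genes. In the strain comparison Gstm1, Gstt1, Gpx3 and Cat lie past the line on the lower side, and in the STEE comparison Mt2 lies past it on the higher side.

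The metallothioneins had the largest median STEE difference of the 9 groups by role, 0.15. Mt2 was at 9.12 in SAMR1, 8.93 in SAMP8 controls and 9.29 in STEE-fed mice. STEE-fed mice were thus the highest of the 3 groups and SAMP8 controls the lowest. The STEE difference was 0.36, a level 1.28-fold higher than in SAMP8 controls, and 0.355% of all genes, or 0.889% of the 1012 genes of like signal, were at least as high. The strain difference of Mt2 was -0.19, so the SAMP8 controls lay below both other groups, and against SAMR1 the STEE-fed mice were higher by 0.17.

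Mt1, the other metallothionein made in most tissues, was at 10.49, 10.40 and 10.52, a STEE difference of 0.12 at its brightest probe set and 0.08 at its other one. A difference of 0.12 is small, yet 0.973% of the 411 genes of like signal were at least as high, against 10.8% of all genes. A difference of this size was thus rarer among bright probe sets than among all. Mt3, the form enriched in the brain, was at 8.02, 8.04 and 8.19, a STEE difference of 0.15, with 6.56% of all genes at least as high. All 3 metallothioneins were therefore higher in STEE-fed mice than in SAMP8 controls, 1 of them past the threshold. In the same comparison 10903 of all 22527 genes were higher, and 7081 of the 13001 at or above the median signal. Txnip, at 0.16, and Mgst1, at -0.19, differed by more than Mt1 and Mt3 did. Mt2 and Mt3 have 1 probe set each. Beside them, the astrocyte markers had a median STEE difference of 0.015, with Gjb6 the single one of 10 past the threshold.

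The promoters of the metallothioneins and of Srxn1 were searched for the cores of the metal and antioxidant response elements. RefSeq windows of GRCm38.p6, which run from 250 bases before to 50 bases after a transcription start, were found for 35 of the 41 genes (45 windows). Capitals mark the metal response element core, TGCACNC or TGCGCNC on either strand, in the 3 metallothionein windows, which are shown because those genes were all higher in STEE-fed mice. In the Srxn1 window, shown as that of a gene higher in SAMP8 mice at all its probe sets, capitals mark the antioxidant response element core, TGACNNNGC on either strand.
Mt2, chr8:94172368-94172667, plus strand: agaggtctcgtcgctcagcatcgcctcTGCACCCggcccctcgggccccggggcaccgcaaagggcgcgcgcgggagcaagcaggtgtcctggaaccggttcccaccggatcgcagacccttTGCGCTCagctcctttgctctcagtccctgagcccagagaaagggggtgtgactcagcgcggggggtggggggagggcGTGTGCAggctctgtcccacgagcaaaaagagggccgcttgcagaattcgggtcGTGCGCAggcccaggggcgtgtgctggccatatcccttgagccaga
Mt1, chr8:94178839-94179138, plus strand: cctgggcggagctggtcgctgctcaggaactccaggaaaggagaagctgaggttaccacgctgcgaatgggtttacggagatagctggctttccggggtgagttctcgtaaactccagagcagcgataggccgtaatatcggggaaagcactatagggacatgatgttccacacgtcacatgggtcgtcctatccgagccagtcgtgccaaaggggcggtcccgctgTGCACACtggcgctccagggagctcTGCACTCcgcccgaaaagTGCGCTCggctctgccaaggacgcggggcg
Mt3, chr8:94152357-94152656, plus strand: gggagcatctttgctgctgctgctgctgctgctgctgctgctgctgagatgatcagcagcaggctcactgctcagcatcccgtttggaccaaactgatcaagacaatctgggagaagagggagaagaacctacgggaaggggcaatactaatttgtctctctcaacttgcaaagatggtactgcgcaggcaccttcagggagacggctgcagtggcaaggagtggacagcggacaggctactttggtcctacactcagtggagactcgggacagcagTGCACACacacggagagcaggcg
Srxn1, chr2:152105274-152105573, plus strand: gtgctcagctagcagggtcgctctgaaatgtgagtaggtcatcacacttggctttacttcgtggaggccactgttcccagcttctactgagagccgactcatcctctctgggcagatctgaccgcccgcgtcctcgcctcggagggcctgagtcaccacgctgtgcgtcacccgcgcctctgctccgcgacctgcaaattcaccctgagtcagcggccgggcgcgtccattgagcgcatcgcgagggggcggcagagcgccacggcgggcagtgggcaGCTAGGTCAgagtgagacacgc

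Mt2 held 4 metal response cores, Mt1 held 3 and Mt3 held 1, which begins 27 bases after the start. Mt2 also held 1 antioxidant response core, TGACTCAGC, which begins 79 bases before the start and is left in lower case. The Srxn1 core lies on the minus strand, 28 bases after the start, and that window also held 1 metal response core. Of all 32851 mouse windows, 25.7% held at least 1 metal response core and 1.97% held 3 or more. Of the 45 windows found here, 15 (33.3%) held at least 1 and 3 (6.67%), those of Mt1, Mt2 and Gclm, held 3 or more. These are shares of windows, and those of 1 gene can overlap, as for Glrx and Gstm1, so 1 site can count more than once. The antioxidant response core was in 9 of 45 windows (20%) against 12.4% of all. In Gclm 1 antioxidant response core overlaps a metal response core. A match is a run of letters in the window and says nothing of binding in these mice.

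**Figure D4:**
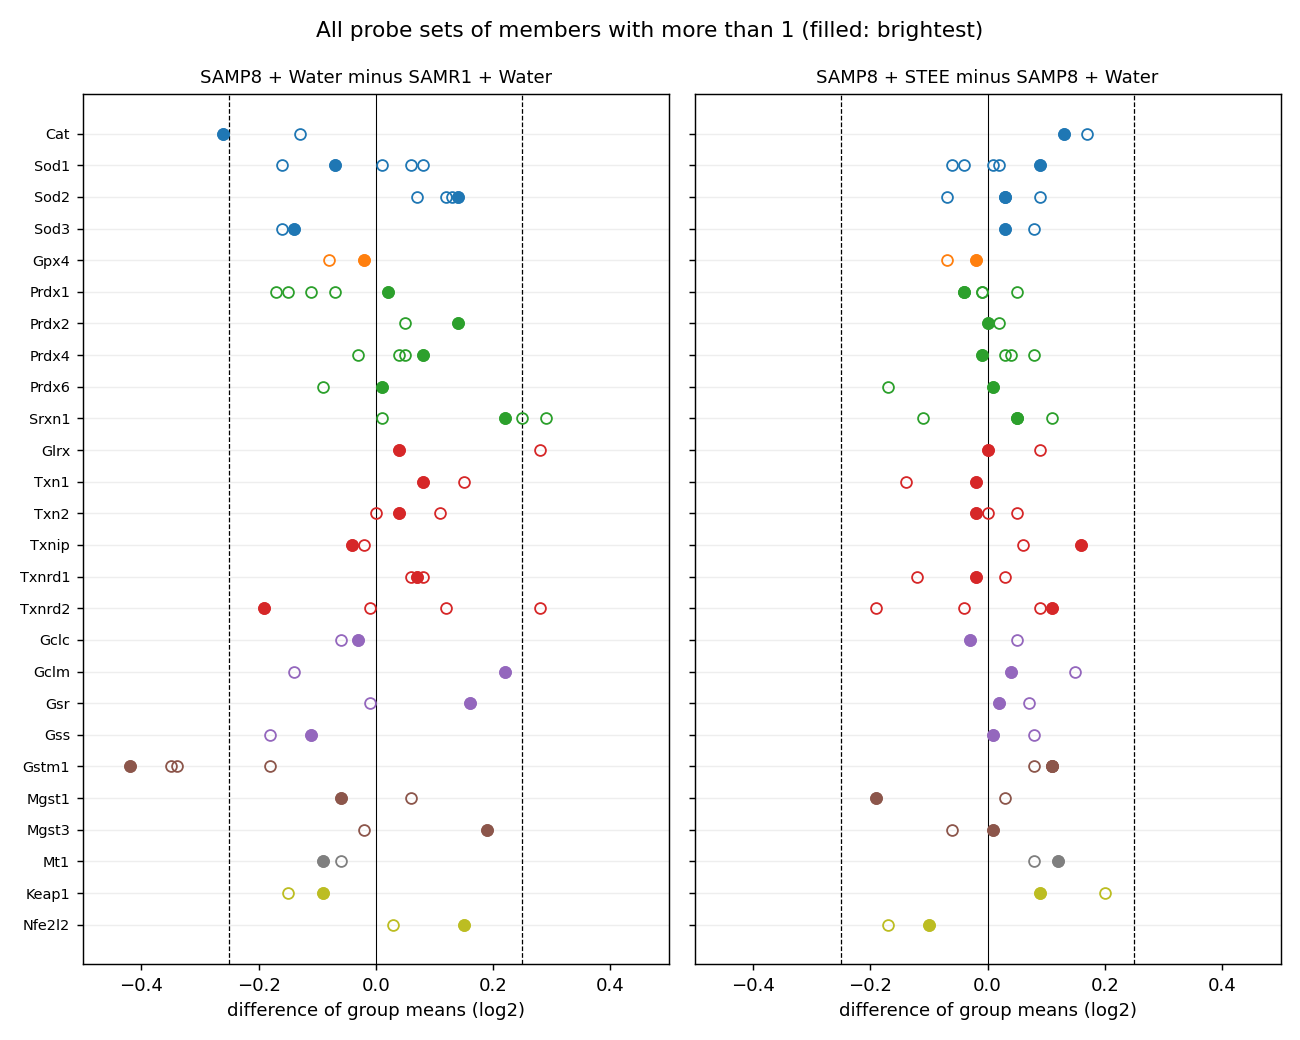
Log2 difference of every probe set of the 26 genes that have several, for SAMP8 controls minus SAMR1 (left) and STEE-fed mice minus SAMP8 controls (right), with the brightest probe set of a gene filled, the others open and dashed lines at 0.25 on both sides. For strain, all 4 probe sets of Gstm1 lie below 0 and all 4 of Srxn1 above 0, while those of Txnrd2 and Gclm lie on both sides.

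Several probe sets bore on 26 of the 41 genes and 1 probe set on the other 15. For strain, all probe sets shared a sign in 16 of the 26 and had both signs in 9, and for STEE the counts were 12 and 12. Gstm1, Srxn1, Sod2 and Cat were among the genes whose probe sets all shared a sign for strain, whereas Gclm, Txnrd2 and Sod1 had both signs.

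The genes around this defense system were read from lists of 78 genes, all of them found. Past the threshold, 3 were higher and 1 lower for strain, against 4.25% and 3.84% of all genes, with a median of -0.01. For STEE 2 were higher and 0 lower, against 1.4% and 1.22% of all genes, with a median of 0.01, so these counts lie near or under the background. Among the 11 genes that supply NADPH, the electron source of both reductases, Me1, cytosolic malic enzyme, was at 6.76 in SAMR1, 7.16 in SAMP8 controls and 7.07 in STEE-fed mice, a strain difference of 0.40. Me3, a mitochondrial malic enzyme, was higher by 0.30, and Tkt, the transketolase of the pentose phosphate pathway, was lower, at 9.39, 9.08 and 9.10. Me2, the further mitochondrial malic enzyme, differed by 0.14 for strain and by 0.32 between STEE-fed mice and SAMR1.

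Among 10 partners and regulators of Nrf2, Sqstm1, which binds Keap1 and targets it to autophagy, was at 8.59, 8.88 and 8.77, a strain difference of 0.29. Bach2, a repressor of the family that competes for the same DNA element, was at 5.62, 5.48 and 5.89, a STEE difference of 0.41. Of 20 further glutathione transferases, peroxidases and glutaredoxins, 13 were lower, 2 higher and 5 equal in SAMP8 controls, with a median of -0.06. None was past the threshold, and several of the 20 had levels under the median signal of all probe sets. Of the 7 transferases described above 6 were lower, and of all 22527 genes 11057 were lower. The 5 genes found in the list of selenoproteins and their supply were all lower in SAMP8 controls (median -0.08, none past the threshold), as were 11057 of all genes. Their differences ran from -0.18 to -0.04, beside an SD between probe sets of 1 gene of 0.145. Sephs2, which makes the selenium donor, was at 6.70, 6.62 and 6.87, higher with STEE by 0.25. Iron and heme genes, zinc and copper handling genes and methionine sulfoxide repair genes had 0 members past the threshold for strain or STEE.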

How the data were processed

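RNA of 6 cerebral cortices was measured on 1-colour arrays. The authors summarised the scans with RMA in Affymetrix Expression Console and averaged each group in Transcriptome Analysis Console (version 4 in the methods), per the methods and the processing notes. The authors deposited log2 values that are bi-weight averages of 2 arrays, rounded to 2 decimals, so a difference is uncertain by up to 0.01 from rounding alone. RMA sets all arrays to 1 distribution and hides any change common to all genes. Other versions and the genome build are not given in the sources used here. The deposited tables also hold the authors' fold changes, ANOVA p-values and FDR-adjusted p-values, which were not used.

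Differences of group means, counts past 0.25 and backgrounds over 22527 symbols were computed with Python 3.11.15, numpy 2.4.6, pandas 2.3.3 and matplotlib 3.10.9, and the scripts were tested on simulated data. Symbols that share a probe set were split, and 5694 probe sets have no symbol. Selenop, Selenow and Drd1 were matched to older symbols through the RefSeq table of GRCm38.p6. Sbp2 is an older name of Secisbp2, listed beside it and counted once, and Ly6g was not found. The genes, lists, roles and motifs were chosen with earlier results of these data known. Every gene past the threshold was named, with all metallothioneins, dismutases, Cat, Nfe2l2 and Keap1, and in other roles the brightest gene and those with the largest differences either way. Of other lists, only genes past the threshold were named. Alternatives were thresholds of 0.15 and 0.5, the mean of all probe sets, probe sets with 1 symbol, probe sets without _x_at and _s_at, a signal filter and centring on the median. Like-signal genes lie within 0.5 on the log2 scale.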

Additional observations from a re-analysis of the deposited data

How the results depend on the processing

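The median of the 41 genes lay between -0.025 and 0.000 for strain, 0.010 and 0.025 for STEE, and 0.010 and 0.020 for STEE-fed mice minus SAMR1 under all settings run, and no called value reversed. A count was taken as moved when it differed by over 1.5 times, and a median or a gene's difference when it differed by at least the SD between probe sets of 1 gene; 12 counts moved and the other 45 counts and medians did not. At a threshold of 0.15 the strain comparison had 5 genes higher and 7 lower (11% of all genes on either side), the STEE comparison 3 and 1 (6.56% and 6.37% of all genes), and STEE-fed mice minus SAMR1 had 8 higher (12.6% of all genes). At 0.5, 0 genes were lower for strain (0.55% of all genes), 0 higher for STEE (0.0932%), and 0 higher and 0 lower for STEE-fed mice minus SAMR1 (1.09% and 0.577%). With the mean of all probe sets, STEE-fed mice minus SAMR1 had 0 higher and 1 lower (Gpx3), against 4.14% and 2.53% of all genes. Under that setting Cat was no longer past the threshold for strain, Gclm moved to 0.04 for strain, and Mgst1 moved to -0.08 for STEE and for STEE-fed mice minus SAMR1. Without _x_at and _s_at probe sets 1 gene, Srxn1, was higher for strain (4.34% of all genes), Gstm1 was no longer past the threshold for STEE-fed mice minus SAMR1, and Sod1 moved to 0.08 for strain and -0.04 for STEE. Centring took Mgst1 below the threshold in STEE-fed mice minus SAMR1, and with probe sets of 1 symbol Prdx6 was past it there. Gstm1, Gstt1 and Gpx3 for strain and Mt2 for STEE stayed past 0.25 under every alternative but the threshold of 0.5. Gstt1, Gpx3 and Mt2 have 1 probe set each, so the alternatives that select, average or filter probe sets could not change their values. Only Gstm1, with several probe sets, was open to such a change. The cause of the other moves was not tested.

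No paired analysis was possible because only group means were used and no result comes from a test, and for the same reason leaving out a replicate was not run. Hmox1, Nqo1, Sod3, Gpx7 and Gpx8 lie under the median signal of all probe sets, and how far a lower level would show there was not tested. A difference with no spread between mice cannot be told from variation among animals.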
